A study of Rattus norvegicus with 16 samples.

Results

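The comparison described here sets the renal outer medulla of rats dosed with 2-amino-4-nitrophenol (ANP) for 7 days against that of rats dosed for 1 day. Its members are 2 of the 16 arrays of the series, the ANP pool of day 7 and the ANP pool of day 1, and the 2 vehicle pools of the same days are the baseline for change without treatment. All animals were male Sprague-Dawley rats, 5 weeks old at the start of dosing. The treated groups received ANP in corn oil by gavage at 750 mg/kg/day, and the vehicle groups received corn oil. For each of the 4 groups of days 1 and 7, RNA of 3 of the 4 animals was mixed and hybridised to 1 one-colour array, so these groups carry no spread between animals and no test was possible. The 12 arrays of single animals at days 14 and 28, 3 for each treatment and day, come from other rats and were used as a follow-up. The question is which changes of the first day had faded by day 7, which were still there and which had begun.

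ANP is a nitroaromatic compound used in hair dyes. The outer medulla is a stripe of the kidney that holds the straight segment (S3) of the proximal tubule, the thick ascending limb and the collecting duct. The S3 segment takes up organic anions and drugs from blood, and its cells are known to be sensitive to toxic and ischaemic injury. Injured tubule cells are known to switch on immediate early genes, heat shock chaperones and the kidney injury molecule Havcr1 within hours, while the transcription factor NRF2 drives enzymes that detoxify electrophiles for as long as the stress lasts.

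The levels below are log2 signal minus the 75th percentile of the array, so a level of 0 is a probe at that percentile. They compare arrays for 1 gene and not genes with each other. The 4 pools lay on 1 slide, and 66.56% to 69.6% of their 61657 probes were well above background. The labelled tissue was borne out by its markers in all 4 pools: Umod, the abundant protein of the thick ascending limb, stood at 8.90 and 8.61 in the vehicle and ANP pools of day 1 and at 8.94 and 9.04 in those of day 7. Aqp2, the water channel of the collecting duct, stood between 6.01 and 6.47. Of 15 measured podocyte and glomerular genes, all were well above background in both day 1 pools and all but 1 in each day 7 pool, so the samples were not free of cortex.

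The pools also differed in genes of other cell types. In the ANP pool of day 1 several genes of brown and white fat were high, among them Ucp1, the uncoupling protein of brown fat, at 1.76 against -3.20, -3.39 and -3.69 in the other pools. A list of 16 adipocyte genes, drawn up after these values were seen, had 13 measured members, and their summed linear signal was 24.9 times the 75th percentile in that pool against 12.9, 14.1 and 13.2 in the vehicle pool of day 1, the vehicle pool of day 7 and the ANP pool of day 7. It ranged from 7.82 to 16.5 over the 12 later arrays. All 13 members were above background in each of the 4 pools, and 7 were at least 2-fold above vehicle at day 1 and 0 at day 7. Adipoq, the fat cell hormone, was under 2-fold, at 0.48 in the ANP pool of day 1 against -0.26, 0.33 and -0.19. Markers of the cortex differed between pools too. All 8 measured markers of the distal convoluted tubule and 17 of 22 markers of the convoluted proximal tubule were lower at day 7 than at day 1 in vehicle, with medians of -0.69 and -0.71 on the log2 scale. The summed signal of the convoluted proximal list was 1410 in the vehicle pool and 1100 in the ANP pool of day 1, and 1210 and 1440 in those of day 7, so the ANP pool of day 7 was as high as the vehicle pool of day 1. That of the distal convoluted list was 83.1 and 55.2 at day 1 and 73.2 and 63.2 at day 7. The part of either pattern in the results below was not tested, beyond the values given with them.

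Between the treated pools, 1049 of 12326 genes with a usable signal differed at least 2-fold (8.51%), of which 560 had the higher level at day 7 (4.54%) and 489 the lower (3.97%). Between the vehicle pools, 357 of 12310 genes differed that much (2.9%), with 144 higher (1.17%) and 213 lower at day 7 (1.73%). The median difference over all genes was 0.029 in the treated pools and 0.0 in the vehicle pools, on the log2 scale. A gene counted if its probe was well above background on at least 1 of the 2 arrays, and where it was dim on the other the difference is a lower bound. Such bounds made up 81 of the 560 and 93 of the 489. In bulk tissue, fewer cells of a type and less RNA per cell cannot be told apart.

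The difference between ANP and vehicle was smaller at day 7 than at day 1 by this count. At day 1, 1092 of 12428 genes differed at least 2-fold from vehicle (8.79%), 542 of them above it (4.36%) and 550 below it (4.43%). At day 7, 455 of 12143 did so (3.75%), 218 above vehicle (1.8%) and 237 below it (1.95%). Genes whose vehicle pools differed by less than 2-fold were then sorted by their course. An early gene differed at least 2-fold from vehicle at day 1. It was faded when its difference at day 7 was under 1.5-fold in that direction and the treated pools themselves differed at least 2-fold back, kept when it still differed at least 2-fold the same way, and in between otherwise. A begun gene differed at least 2-fold at day 7, was under 1.5-fold in that direction at day 1, and moved at least 2-fold between the treated pools. Because the day 1 difference and the change between the treated pools share the ANP array of day 1, a part of each return is given by the choice of genes.

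Of 508 genes that were higher with ANP at day 1, 262 had faded by day 7 (51.6%), 66 were kept (13%) and 180 lay in between (35.4%). Of 427 genes that were lower, 210 had faded (49.2%), 46 were kept (10.8%) and 171 lay in between (40%). In between also holds genes close to vehicle at day 7 whose treated pools differed by less than 2-fold. The median difference from vehicle of the 180 and 171 genes was 0.36 and -0.19 at day 7, on the log2 scale. Their median change between the treated pools was -0.78 and 0.73. Apart from these, 77 genes were classed as begun higher and 34 as begun lower. A gene that met both a faded and a begun rule, in opposite directions, was counted once, in its lower class. Slc6a12, Gprc5a and Lrat, at least 2-fold above vehicle at day 1, were thus counted as begun lower and not among the 508. Hnf4a, Glyatl2 and Ly9 were counted as faded lower and not as begun higher. Of all 12596 genes, the faded higher class is 2.08%, the faded lower class 1.67%, the kept higher class 0.524%, the kept lower class 0.365%, the classes in between 1.43% and 1.36%, and the begun classes 0.611% and 0.27%. Kept does not mean steady. Of the 66 kept higher genes, 25 were at least 2-fold lower at day 7 than at day 1 in the treated pools, 39 were within 2-fold and 2 were at least 2-fold higher.

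**Figure D1:**
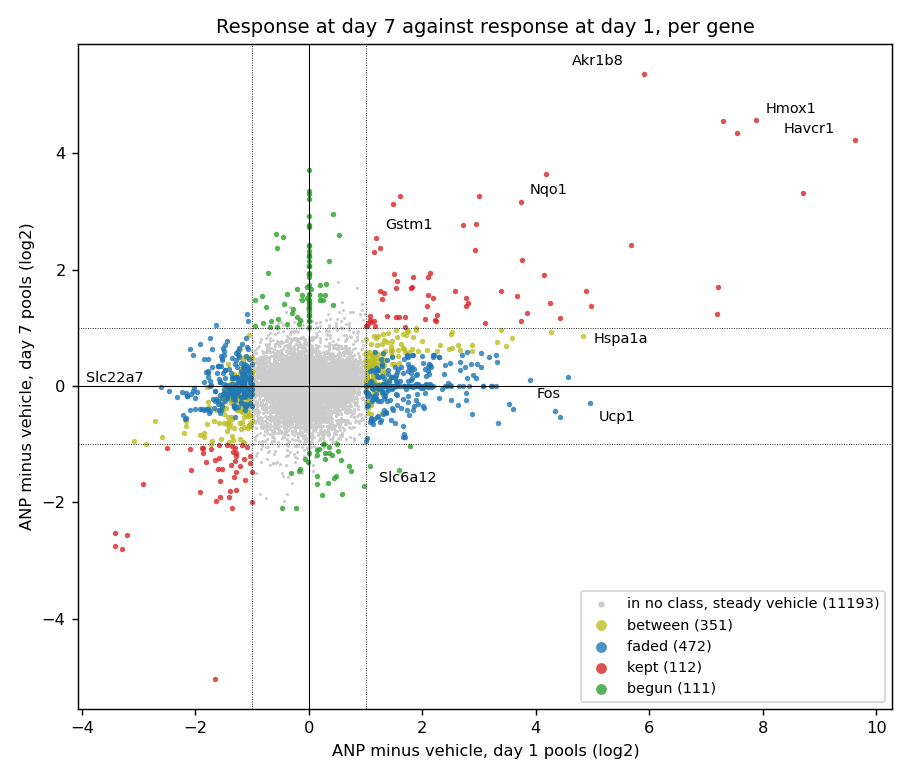
Each point is a gene. The horizontal axis is ANP minus vehicle in the day 1 pools and the vertical axis ANP minus vehicle in the day 7 pools, both log2, with dotted lines at 2-fold. The 472 faded genes lie mostly along the horizontal zero line and the 111 begun genes mostly along the vertical zero line. The 112 kept genes lie in the upper right and lower left. Akr1b8 keeps a difference of 5.36 at day 7 while Fos is at 0.10.

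The NRF2 programme was kept as a group. NRF2 is released from its repressor by electrophiles and oxidants and turns on enzymes that conjugate, reduce or export them. Of 33 listed target genes 32 were measured, and 16 of them were at least 2-fold higher with ANP at day 1 and 18 at day 7. None had faded, 14 were kept and 2 lay in between. The list's median difference from vehicle was 0.93 at day 1 and 1.03 at day 7, and its median change between the treated pools was 0.08 against -0.02 between the vehicle pools and 0.029 over all genes. Single members did change: 13 of the 32 were lower at day 7 than at day 1 with ANP, 5 of them at least 2-fold, and 19 were higher, 1 of them at least 2-fold. In the later animals the list's median difference was 0.72 at day 14 and 1.02 at day 28. Of 31 tested members limma called 3 and 19 higher, beside 0.355% and 4.46% of all genes. The calls of day 14 were lost with the slide as a block, and at day 28 each treatment lay on its own slide.

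Akr1b8, an aldo-keto reductase that reduces reactive aldehydes, stood at 0.24 in the vehicle pool and 6.14 in the ANP pool of day 1, and at 0.82 and 6.19 in those of day 7. The 2 treated pools were thus almost level, 59.9-fold and 41.2-fold above their vehicle pools. Nqo1, the quinone reductase, went from -1.09 in vehicle to 2.64 with ANP at day 1 and from -0.90 to 2.26 at day 7. Pir, an iron-binding nuclear protein, stood at -0.15 and 2.84 at day 1 and at -0.14 and 3.13 at day 7. Between the treated pools Pir differed by 0.29 and Nqo1 by -0.38 on the log2 scale, less than the SD among single animals of the later groups, which was 0.55 and 0.73. Abcc2, an export pump for glutathione conjugates, was at 1.11 and 5.28 at day 1 and at 0.59 and 4.24 at day 7.

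Tkt, the transketolase of the pentose phosphate pathway, was 2.04-fold above vehicle on both days. Glutathione transferase Gstm1 was the listed gene whose ANP level was most above its day 1 value. It was at 1.13 in vehicle and 2.31 with ANP at day 1, and at 1.47 and 4.02 at day 7, so the difference widened from 2.27-fold to 5.86-fold. Its relatives Gsta3 and Mgst1 were under 2-fold at day 1, at 0.50 and 0.47, and past it at day 7, at 1.16 and 1.03.

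Other members of the list held a smaller difference at day 7. Hmox1, which breaks down haem, stood at -1.88 and 6.0 at day 1 and at -1.95 and 2.62 at day 7. Its ANP level was 10.4-fold lower at day 7 and 23.7-fold above vehicle. Srxn1, which repairs oxidised peroxiredoxins, was at 1.22 and 5.37 at day 1 and at 1.28 and 3.19 at day 7. Slc7a11, the cystine importer that feeds glutathione synthesis, was at -5.24 and -0.82 at day 1 and at -4.62 with ANP at day 7, where the vehicle pool was not well above background; its second probe changed by -0.15 between the treated pools against -3.80 for the first. Txnrd1, thioredoxin reductase, was 4.0-fold higher at day 1 and 1.72-fold higher at day 7. The glutathione synthesis genes Gclc and Gclm were under 2-fold in both pairs of pools: their differences were -0.51 and -0.20 at day 1 and 0.12 and -0.09 at day 7.

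The UDP-glucuronosyltransferases, which attach glucuronic acid to drugs, gave 3 further kept genes. Ugt2b7 stood at -2.95 and 4.60 at day 1 and at -2.14 and 2.21 at day 7, which is 188-fold and 20.4-fold above vehicle. Ugt2b15 and Ugt2b35 went the other way in time, from 3.04-fold and 2.80-fold at day 1 to 9.55-fold and 8.69-fold at day 7. In both, the ANP level was only 1.67-fold and 1.56-fold higher at day 7, and the vehicle level was 1.88-fold and 1.99-fold lower, so part of the widening lies in vehicle. Genes of this family resemble each other closely, and the probes may not tell them apart.

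**Figure D2:**
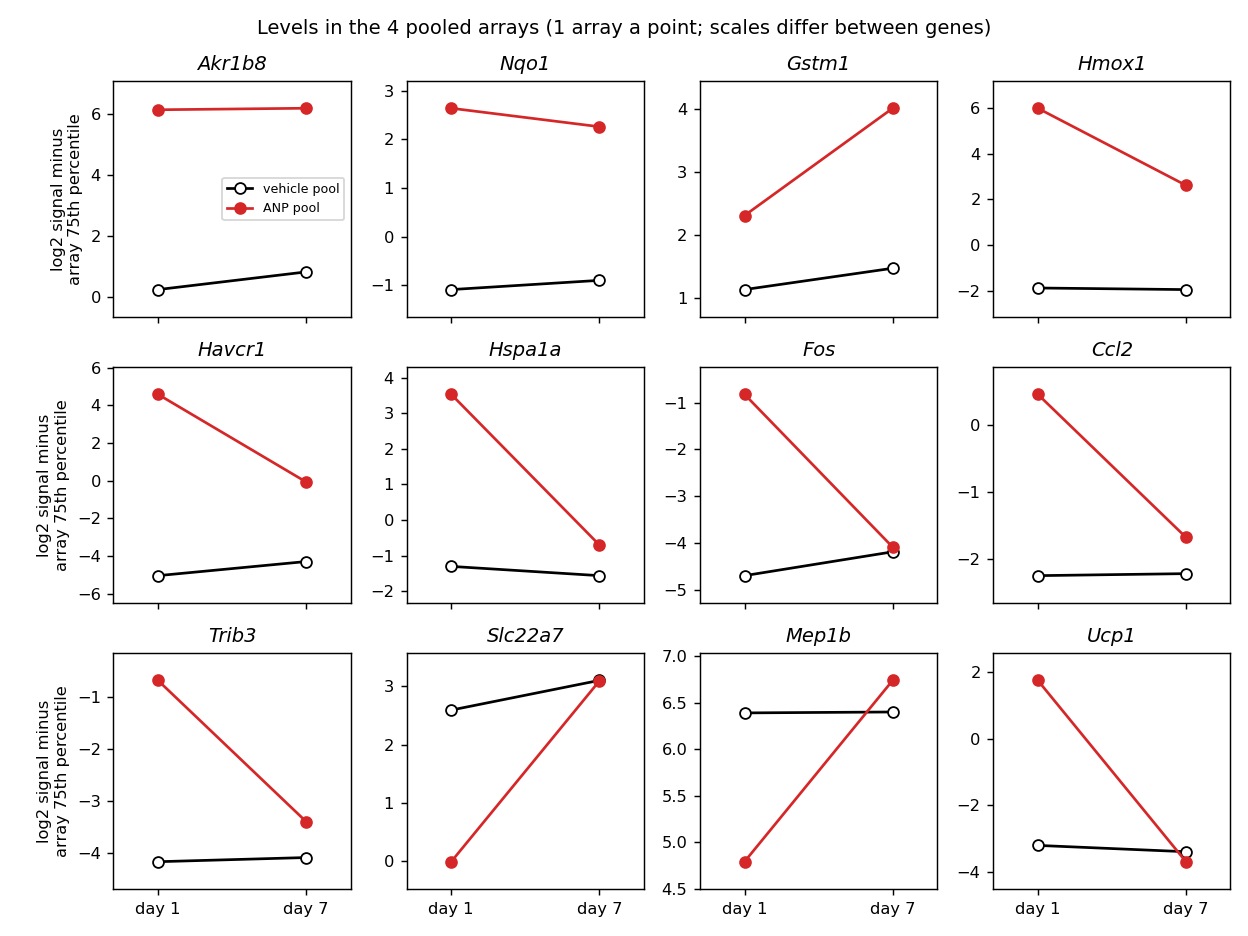
Levels of 12 genes in the 4 pools, as log2 signal minus the 75th percentile of the array, at day 1 and day 7; red filled points are ANP and open points vehicle, 1 array each. Akr1b8 and Nqo1 stay apart from vehicle at both days, Fos and Ucp1 meet it at day 7, and Slc22a7 returns from -0.01 to 3.09 beside a vehicle level of 3.10.

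Several genes far above vehicle at day 1 count as kept although their ANP level was much lower at day 7. Havcr1, the kidney injury molecule of damaged proximal tubule cells, stood at -5.05 in vehicle and 4.59 with ANP at day 1, and at -4.30 and -0.07 at day 7. Its ANP level was 25.2-fold lower at day 7 and still 18.7-fold above vehicle. Fosl1, a subunit of the transcription factor AP-1, was dim in both vehicle pools and stood at 2.67 and -2.57 with ANP, so it was at least 420-fold above vehicle at day 1 and at least 10-fold at day 7. Il1rl1, the receptor of interleukin 33, was at 1.26 and -4.65 with ANP, at least 146-fold and at least 2.37-fold above its dim vehicle pools. Cyp3a9, a cytochrome P450, was at 1.15 and -4.20, at least 147-fold and at least 3.25-fold above vehicle.

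Of 28 measured genes of tubular injury and repair, 23 were lower at day 7 than at day 1 with ANP, 12 of them at least 2-fold, and 11 of 27 were lower with vehicle, none of them 2-fold. The median change was -0.64 with ANP and 0.12 with vehicle. At day 1, 13 of the 28 were at least 2-fold above vehicle, and 7 of these had faded, 3 were kept and 3 lay in between. Lcn2, the iron-scavenging lipocalin used as a marker of kidney injury, stood at -1.06 and 1.71 at day 1 and at -1.19 and -1.31 at day 7. Spp1, osteopontin, stood at 5.39 and 7.4 at day 1 and at 5.68 and 5.34 at day 7. Plaur, the urokinase receptor, was 4.93-fold above vehicle at day 1 and 1.41-fold at day 7. Clu, the chaperone clusterin, was kept, at 3.12 and 4.50 at day 1 and at 2.71 and 3.92 at day 7. The ligands of the EGF receptor drive regrowth of tubule cells. Of 9 measured genes of their list, 4 were above and 5 below vehicle at day 1, with a median of -0.28. The 3 at least 2-fold above it were Hbegf and Ereg, which had faded, and Areg, which was kept. Between the treated pools 5 of the 9 were higher and 4 lower at day 7, with a median of 0.25. Areg stood at -2.05 and 1.71 at day 1 and at -1.73 and 0.42 at day 7.

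The immediate early genes, transcription factors and regulators that cells switch on within minutes of a stimulus, were mostly back at the vehicle level at day 7. Of 21 measured members 20 were lower at day 7 than at day 1 with ANP, 14 of them at least 2-fold. Between the vehicle pools 13 of 20 were lower, none of them 2-fold. The median change was -1.44 with ANP and -0.03 with vehicle, and the median difference from vehicle went from 1.34 at day 1 to -0.05 at day 7. Fos stood at -4.70 and -0.82 at day 1 and at -4.19 and -4.09 at day 7. Egr1 stood at -1.83 and 0.67 at day 1 and at -1.43 and -1.67 at day 7. Jun, Ier2, Ier3, Klf6, Egr2 and Btg2 also counted as faded. Atf3, a stress-induced factor, was an exception, at -1.27 and 4.4 at day 1 and at -1.3 and 1.13 at day 7, still 5.38-fold above vehicle. Myc lay in between, 5.76-fold above vehicle at day 1 and 1.57-fold at day 7. Ccn2, a matricellular target of YAP, was lower than vehicle with ANP on both days, by 2.46-fold and 2.44-fold.

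All 18 measured genes of the heat shock response were lower at day 7 than at day 1 with ANP, 7 of them at least 2-fold, with a median change of -0.59. With vehicle, 8 were lower and 10 higher, none by 2-fold, with a median of 0.03. Heat shock chaperones are switched on by heat shock factor 1 when proteins unfold, through short elements near the start of the gene. Hspa1a, the inducible HSP70, stood at -1.3 and 3.53 at day 1 and at -1.56 and -0.70 at day 7, an 18.8-fold lower ANP level. Hsph1, its nucleotide exchange factor, stood at -1.28 and 1.65 at day 1 and at -1.08 and -0.95 at day 7. Hspb1, the small chaperone HSP27, was at 1.5 and 3.6 at day 1 and at 1.65 and 1.66 at day 7. Dnaja1, an HSP40 cochaperone, was at 4.93 and 6.01 at day 1 and at 4.73 and 4.99 at day 7. Zfand2a, which links ubiquitin to the proteasome, was 31.3-fold above vehicle at day 1 and 2.61-fold at day 7. Zfand2a and Hspb8 were the 2 kept members of the list, beside 5 faded and 1 in between. Hspb8 was 3.48-fold above vehicle at day 1 and 3.19-fold at day 7. Limma called it higher at day 14 (log2 1.34 ± 0.23 SE, adjusted p = 0.0397, 3 animals a group) and day 28 (1.06 ± 0.23 SE, adjusted p = 0.0253). With the slide as a block limma called 0 genes at day 14, Hspb8 included. At day 28 each treatment lay on its own slide, so slide and treatment cannot be told apart.

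The promoters of 3 of these faded chaperones are shown because they hold the heat shock element in the form of a head-to-head pair, GAANNTTC, printed in capitals. They span the start of the gene and come from RefSeq's table for GRCr8, at chr12:10427118-10427417 on the plus strand for Hsph1, chr12:26432252-26432551 on the minus strand for Hspb1 and chr5:60638154-60638453 on the plus strand for Dnaja1.
Hsph1: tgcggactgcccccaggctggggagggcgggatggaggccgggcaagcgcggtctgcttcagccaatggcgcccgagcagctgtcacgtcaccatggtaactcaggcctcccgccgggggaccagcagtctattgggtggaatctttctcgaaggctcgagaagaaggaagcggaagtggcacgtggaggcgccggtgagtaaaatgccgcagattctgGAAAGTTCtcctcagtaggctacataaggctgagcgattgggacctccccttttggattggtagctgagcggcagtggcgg
Hspb1: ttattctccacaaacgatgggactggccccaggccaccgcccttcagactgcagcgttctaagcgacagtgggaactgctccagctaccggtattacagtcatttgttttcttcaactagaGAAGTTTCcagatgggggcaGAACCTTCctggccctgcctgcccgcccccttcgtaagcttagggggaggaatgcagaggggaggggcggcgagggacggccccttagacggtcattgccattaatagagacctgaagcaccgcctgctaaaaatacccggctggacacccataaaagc
Dnaja1: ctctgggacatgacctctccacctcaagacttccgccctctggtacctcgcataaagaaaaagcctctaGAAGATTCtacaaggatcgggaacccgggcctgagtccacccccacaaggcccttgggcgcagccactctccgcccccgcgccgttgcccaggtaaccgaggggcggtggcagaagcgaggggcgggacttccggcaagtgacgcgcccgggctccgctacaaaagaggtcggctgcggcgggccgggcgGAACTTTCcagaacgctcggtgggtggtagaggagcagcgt
The element begins 31 bases before the start in Hsph1, 129 and 109 bases before it in Hspb1, and 181 bases before and 9 bases after it in Dnaja1. It was found in 10 of 15 promoters of the heat shock list (66.7%), in 5.83% of the promoters of all 10280 measured genes with an entry and in 8.34% of all 27457 promoters in the table, searched on both strands. Presence of the element and course differed in some genes: Hspa1a, 18.8-fold lower at day 7 than at day 1, had no match in this window, and Hspb8, which was kept, had one 23 bases before its start. A match is a run of letters and not a measured site, and no match says only that these letters are not in the window.

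The promoter of the kept NRF2 target Pir is shown because it holds the core of the antioxidant response element, TGACNNNGC on either strand, beginning 114 and 9 bases before the start. The second match overlaps the AP-1 sequence TGAGTCA, and the capitals mark all of them. The window is chrX:33851000-33851299 on the minus strand of GRCr8, from RefSeq.
Pir: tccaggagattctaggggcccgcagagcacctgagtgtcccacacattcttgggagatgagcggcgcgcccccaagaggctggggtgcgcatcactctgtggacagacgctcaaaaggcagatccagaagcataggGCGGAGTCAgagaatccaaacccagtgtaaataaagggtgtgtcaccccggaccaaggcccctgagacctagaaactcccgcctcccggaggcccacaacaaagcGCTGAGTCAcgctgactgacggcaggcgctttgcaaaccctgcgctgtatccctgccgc
No match to any of the 5 motifs was found in the promoters of Akr1b8, Nqo1 and Gstm1, which were kept as well. The core was found in 7 of 25 promoters of the NRF2 list (28%) and in 14.3% of all measured genes' promoters. By class, it was in 19.6% of 56 kept higher and 13.3% of 203 faded higher promoters. The AP-1 sequence was in 6 of the 56 kept higher promoters, 9.85% of the faded higher ones, 2.99% of 167 faded lower ones and 3.76% of all measured ones. The heat shock element was in 12.5% of the kept higher and 7.88% of the faded higher promoters. The cyclic AMP element TGACGTCA was in 1.79% and 3.94% of these 2 classes and 2.83% of all measured, and the C/EBP-ATF sequence TGATGCAA was in 0% and 0.985% against 0.642%.

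Chemokines, cytokines and adhesion molecules, which draw leukocytes into injured tissue, were mostly back near vehicle at day 7. Of 24 measured members 21 were lower at day 7 than at day 1 with ANP, 12 of them at least 2-fold, with a median of -0.96. With vehicle, 9 of 22 were lower, none of them 2-fold, and 1 was at least 2-fold higher, with a median of 0.06. At day 1, 12 were at least 2-fold above vehicle, and 9 of them had faded, 2 were kept and 1 lay in between. Ccl2, the monocyte chemoattractant, stood at -2.25 and 0.45 at day 1 and at -2.22 and -1.68 at day 7. Cxcl1, a neutrophil chemoattractant, stood at -3.54 and 0.74 at day 1 and at -4.35 and -3.43 at day 7. Il1b stood at -1.72 and 0.16 at day 1 and at -1.46 and -1.43 at day 7. Il24 and Ccl20 were kept, at 2.18-fold and 2.33-fold above vehicle at day 7 after 13.3-fold and 4.77-fold at day 1. Of 21 measured markers of macrophages and other myeloid cells, 4 were at least 2-fold above vehicle at day 1 and 0 of 19 at day 7, and their median change was -0.30 with ANP and 0.24 with vehicle.

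Several genes of fat cells were far lower at day 7 than at day 1 in the treated pools. Besides Ucp1, Scd, a fatty acid desaturase, stood at -4.49 and 0.07 at day 1 and at -5.16 and -5.01 at day 7. Retn, resistin, stood at -4.80 and -1.21 at day 1 and at -4.68 and -5.07 at day 7. Thrsp, a regulator of lipid synthesis, and Glycam1, a mucin of vessels in lymph nodes that is no member of the list, were 10.1-fold and 21.3-fold above vehicle at day 1 and below it at day 7. Of the 13 measured genes of the adipocyte list 11 were lower at day 7 than at day 1 with ANP, 8 at least 2-fold, and 7 were faded higher. The list was chosen from these values and supports nothing. Without its genes the faded higher class holds 255 genes.

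Genes of the ATF4 pathway, which answers amino acid shortage and unfolded proteins, were lower at day 7 in 21 of 25 cases with ANP, 6 of them at least 2-fold, with a median of -0.45 against -0.01 with vehicle. At day 1, 7 were at least 2-fold above vehicle, and only Gdf15 was at day 7. Trib3, a pseudokinase of this pathway, stood at -4.17 and -0.69 at day 1 and at -4.09 and -3.40 at day 7. Mthfd2, a mitochondrial folate enzyme, stood at -2.05 and 0.98 at day 1 and at -1.44 and -1.11 at day 7. Ddit3, the pro-apoptotic factor CHOP, was 5.60-fold above vehicle at day 1 and 1.31-fold at day 7.

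In the later animals, 10 of 23 tested genes of this list were called higher by limma at day 28, where 528 of 11840 genes were called higher (4.46%) and 314 lower (2.65%). Of these 10, 9 had been under 2-fold at day 7, and 5 of the 9 had been at least 2-fold above vehicle at day 1. Mthfd2 differed by 3.03 at day 1, 0.33 at day 7, 1.04 ± 0.34 SE at day 14 (limma adjusted p = 0.227) and 2.70 ± 0.34 SE at day 28 (limma adjusted p = 0.00475). Pycr1, a proline synthesis enzyme, differed by 2.79, 0.58, 1.49 ± 0.46 SE (limma adjusted p = 0.208) and 2.95 ± 0.46 SE (limma adjusted p = 0.00902), though its second probe changed by -0.34 between the treated pools against -1.81 for the first. Asns, asparagine synthetase, differed by 1.71, 0.88, 1.69 ± 0.30 SE (limma adjusted p = 0.0455) and 3.47 ± 0.30 SE (limma adjusted p = 0.00184). The difference between days was not tested. The call of Asns at day 14 was lost with the slide as a block, as were all calls of that day. At day 28 each treatment lay on its own slide, so slide and treatment cannot be told apart there.

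**Figure D3:**
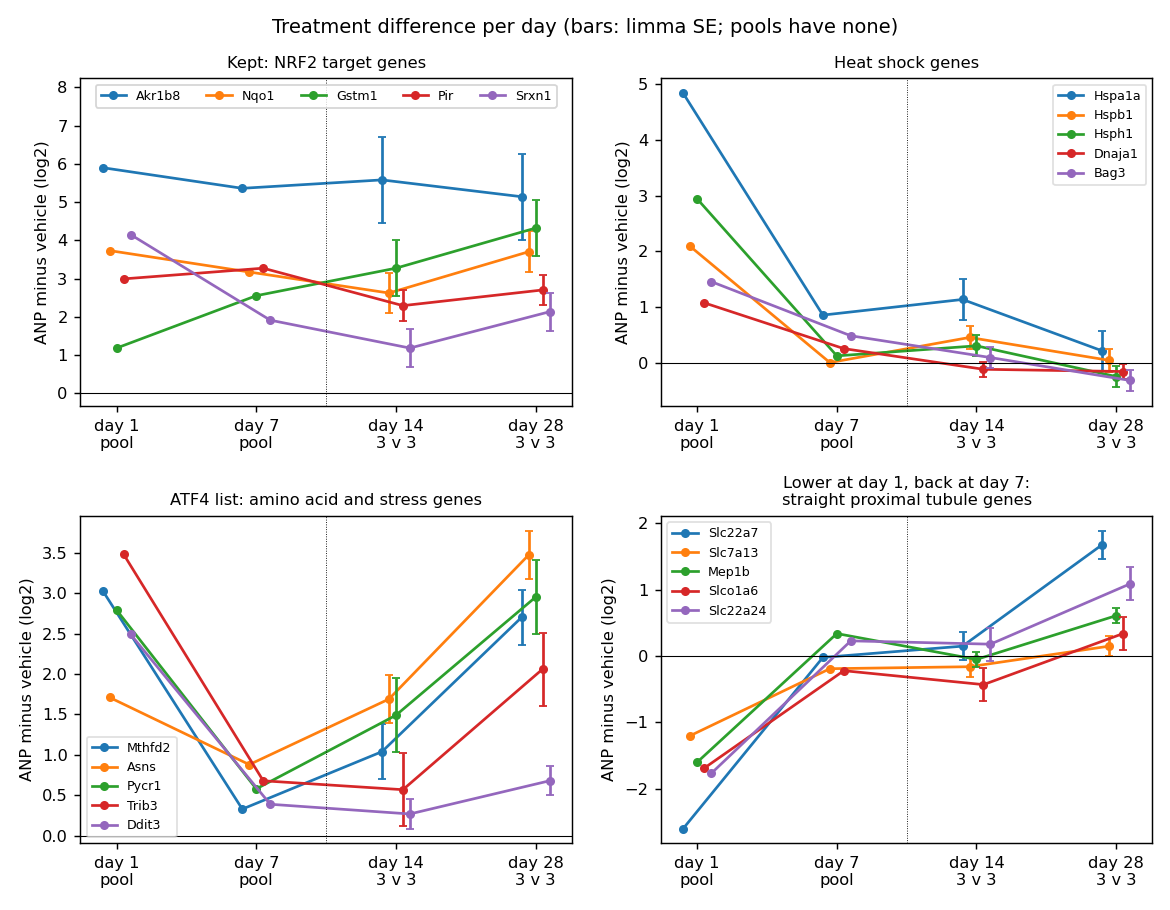
ANP minus vehicle (log2) on days 1 and 7 (pools, no error) and days 14 and 28 (3 against 3 animals, bars are the limma SE) for 5 genes of each of 4 lists, with a dotted line between pools and single animals. The 5 NRF2 targets, all chosen from the kept class, stay above 1 on all days, and the 5 heat shock genes are below 1 at day 7. The 5 amino acid and stress genes lie below 1 at day 7 and between 0.68 and 3.47 at day 28. The 5 S3 genes lie below -1 at day 1 and between -0.22 and 0.34 at day 7.

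Among genes that were lower at day 1, the markers of the S3 segment were mostly back at the vehicle level at day 7. All 28 listed markers were measured. In the treated pools 27 were higher at day 7 than at day 1, 11 of them at least 2-fold, with a median of 0.89. In the vehicle pools 18 were higher, with 1 gene 2-fold higher and 1 2-fold lower and a median of 0.05. The median difference from vehicle was -0.98 at day 1, where 14 of the 28 were at least 2-fold lower, and 0.0 at day 7. Their summed linear signal was 2680 times the 75th percentile in vehicle and 1580 with ANP at day 1, and 2670 and 2720 at day 7.

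Slc22a7, the organic anion transporter OAT2, stood at 2.59 and -0.01 at day 1 and at 3.10 and 3.09 at day 7. Slc22a24, a relative of it, stood at 5.16 and 3.39 at day 1 and at 5.21 and 5.45 at day 7. Slc7a13, the S3 cystine and aspartate carrier, stood at 7.97 and 6.77 at day 1 and at 8.28 and 8.09 at day 7. Mep1b, the brush border protease meprin beta, stood at 6.39 and 4.79 at day 1 and at 6.4 and 6.74 at day 7. In each of these genes the ANP pool of day 1 was the low array and the other 3 lay within 2-fold of each other. Slco1a1, an organic anion transporter, did not return: it was 2.46-fold below vehicle at day 1 and 3.97-fold at day 7, while the vehicle level was 2.16-fold higher at day 7. At day 28 limma called Slc22a7 (1.68 ± 0.21 SE, adjusted p = 0.00475), Slc22a24 (1.09 ± 0.25 SE, adjusted p = 0.0298) and Mep1b (0.61 ± 0.11 SE, adjusted p = 0.0137) higher with ANP, and none of the 28 lower. The median difference of the list was -0.23 at day 14 and 0.04 at day 28. Slide and treatment cannot be told apart at day 28, and markers of the cortex also differed there, as given below.

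Fatty acid oxidation, the main fuel pathway of these cells, was also lower at day 1. Of 31 genes 8 were at least 2-fold below vehicle at day 1 and 1 at day 7, with medians of -0.77 and 0.01. In the treated pools 27 were higher at day 7, none of these by 2-fold, and 1 of the others was at least 2-fold lower, with a median of 0.48, and in the vehicle pools 27 were lower, 4 of them at least 2-fold, with a median of -0.31. Both pools therefore moved towards each other. Ehhadh, a peroxisomal enzyme of the pathway, stood at 3.51 and 1.71 at day 1 and at 2.54 and 2.52 at day 7. In the later animals the list's median difference was -0.16 at day 14 and -0.19 at day 28. Of 31 tested members limma called 0 and 4 lower, beside 0.118% and 2.65% of all genes. At day 28 slide and treatment cannot be told apart. Oxidative phosphorylation moved less but evenly: 31 of 33 genes were higher at day 7 with ANP, with a median of 0.32, none by 2-fold, and 19 were higher with vehicle, with a median of 0.02. Sdha, a subunit of succinate dehydrogenase, stood at 6.75 and 6.27 at day 1 and at 6.72 and 6.72 at day 7.

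**Figure D4:**
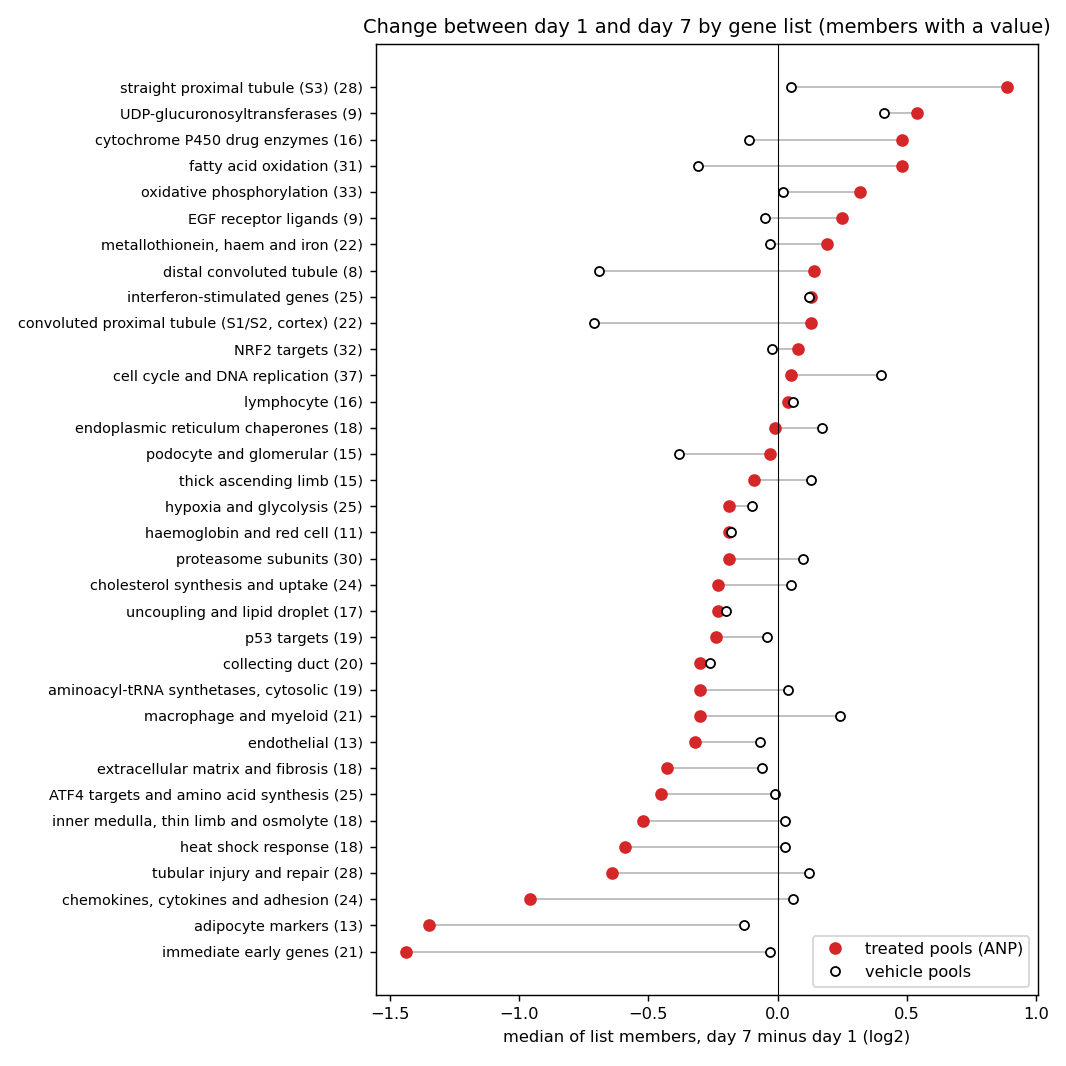
For each gene list, the median over its members of day 7 minus day 1 (log2), in the treated pools (red) and the vehicle pools (open); the number of members with a value is in brackets. Immediate early genes, adipocyte markers and chemokines lie furthest left with ANP, at -1.44, -1.35 and -0.96, and the S3 markers furthest right, at 0.89; the lists of the distal convoluted and convoluted proximal tubule differ mainly in vehicle.

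The 46 kept lower genes included few members of the lists. Cyp2c11, a male-specific cytochrome P450, stood at 1.16 and -0.50 at day 1 and at 1.29 and -3.74 at day 7, so that its difference widened from 3.16-fold to 32.6-fold below vehicle. It was called lower by limma at day 28 (-6.03 ± 1.26 SE, adjusted p = 0.0232) and missed the threshold at day 14 (-6.70 ± 1.26 SE, adjusted p = 0.0539). Slide and treatment cannot be told apart at day 28. The class also holds the olfactory receptor genes Or2n1e, Or2n1el1, Or2n1j and Or6c3b, which differed from vehicle by -3.20 to -3.41 at day 1 and by -2.53 to -2.80 at day 7. Their differences in the later animals were -0.96 to -1.13 at day 14 and 1.72 to 2.01 at day 28, with limma adjusted p from 0.205 to 0.705, and probes of such related genes may share targets. Irf7 and Usp18, of the interferon response, were 2.13-fold and 2.57-fold below vehicle at day 1 and 2.07-fold and 2.04-fold at day 7.

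The begun classes held 111 genes, beside 112 kept and 472 faded, and many of the begun higher genes rest on 1 array. Genes at least 2-fold from vehicle at day 7 that met neither the kept nor the begun rule are not counted here. Gsta3 and Mgst1 are among them. Of the 77 begun higher genes, 39 were well above background in the ANP pool of day 7 only. Genes at least 2-fold above the floor of the other 3 pools and seen in 1 pool only numbered 39 in that pool, 33 in the vehicle pool of day 1, 24 in the vehicle pool of day 7 and 45 in the ANP pool of day 1. C14h5orf52 and Sdr16c5, the furthest of the class, stood at -2.18 and -2.55 in the ANP pool of day 7 and were dim in the others. A second probe with a usable signal existed for 11 of the 77 genes; it had the same sign in 7 and was at least 2-fold in 3. For the faded higher class the second probe had the same sign in 101 of 108 genes and for the faded lower class in 94 of 96.

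The 34 begun lower genes were better measured, with the same sign at the second probe in 17 of 18 and at least 2-fold in 14. Slc6a12, the betaine carrier that medullary cells use to gather osmolytes, stood at -0.56 and 0.51 at day 1 and at -0.60 and -1.97 at day 7. It was thus above vehicle at day 1 and below it at day 7, and its second probe was 2.60 lower on the log2 scale between the treated pools. Cryga and Crygd, crystallins, stood at -1.61 and -4.03 in the ANP pool of day 7 against 0.50 and -1.94 in the vehicle pool, and the second probe of Crygd was the exception in sign, at 0.20 between the treated pools. Of 18 genes of the inner medulla and of osmolyte handling 13 were lower at day 7 with ANP, 5 of them at least 2-fold, with a median of -0.52 against 0.03 with vehicle. Among them, Akr1b1, which makes sorbitol, was 2.36-fold lower and Slc5a3, the inositol carrier, 2.15-fold lower at day 7 than at day 1 with ANP. Of the 33 begun lower genes tested, limma called 0 lower at day 14 and 0 at day 28. Over all genes 0.118% and 2.65% were called lower on these days, so few calls could arise among 33 genes. In the class, 8 and 6 of the 33 lay below vehicle, with median differences of 0.21 and 0.38.

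Other parts of the nephron moved little between the treated pools. The thick ascending limb list had a median of -0.09 with ANP and 0.13 with vehicle, and the collecting duct list -0.30 and -0.26, with 19 of 20 and 17 of 20 members lower. The lists of cortical segments moved mainly between the vehicle pools. The convoluted proximal tubule list had a median of 0.13 with ANP and -0.71 with vehicle, the distal convoluted tubule list 0.14 and -0.69, and the podocyte list -0.03 and -0.38. Like the S3 markers, these lists were mostly below vehicle at day 1, in 20 of 22, 8 of 8 and 12 of 15 members. Their median differences from vehicle were -0.48, -0.7 and -0.23 at day 1 and 0.37, 0.28 and 0.02 at day 7. Cell cycle genes were higher at day 7 in 33 of 37 cases with vehicle, with a median of 0.40, and in 21 of 37 with ANP, with a median of 0.05. Mcm3, a subunit of the replicative helicase, and Ccne1, a cyclin of S phase entry, had been 2.52-fold and 4.08-fold above vehicle at day 1 and had faded.

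Cholesterol synthesis and uptake genes had been at least 2-fold above vehicle in 8 of 24 cases at day 1 and in none at day 7. Of these 8, 2 had faded, 5 lay in between and 1 was left out of the classes because its vehicle pools differed at least 2-fold. Cytosolic aminoacyl-tRNA synthetases and proteasome subunits were lower at day 7 with ANP in 17 of 19 and 28 of 30 cases, with medians of -0.30 and -0.19, none by 2-fold, against 0.04 and 0.10 with vehicle. Matrix genes were lower in 18 of 18 cases with ANP, with a median of -0.43, and in 12 of 18 with vehicle, with a median of -0.06.

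The 357 genes whose vehicle pools differed at least 2-fold were left out of the classes. Obp3, an odorant-binding protein, was 43.6-fold higher at day 7 in vehicle as a lower bound and 9.15-fold higher with ANP. Akr1c2, an aldo-keto reductase, stood at -2.58 and -1.70 at day 1 and at 1.81 and 1.06 at day 7. Uvssa stood at 6.24 in the vehicle pool of day 1 and between -2.84 and -2.68 in the other 3 pools, so its difference rests on 1 array, and its second probe differed by -0.01 between the vehicle pools.

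The single animals of days 14 and 28, which the classes did not use, gave each class a further reading. At day 14 limma called 42 of 11840 genes higher (0.355%) and 14 lower (0.118%) with ANP. Of 62 tested genes of the kept higher class, 11 were called higher at day 14 (17.7%) and 25 at day 28 (40.3%). At day 28 each treatment lay on its own slide, so slide and treatment cannot be told apart in any call of that day. Markers of other cell types differed there too. The summed signal of the podocyte list was 45.2 to 53.4 in vehicle and 28.6 to 30.9 with ANP. The convoluted proximal list had 2040 to 2200 and 1530 to 1970, the distal convoluted list 73 to 82.1 and 68.8 to 72.9. The adipocyte list had 7.82 to 10.6 and 12.3 to 13.2. For the S3, thick ascending limb and macrophage lists the ranges overlapped. The part of this in the calls was not tested. Of 192 tested genes of the faded higher class, 1 was called higher at day 14 (0.521%) and 9 at day 28 (4.69%), beside 4.46% of all genes. Genes in between gave 5 and 24 of 160, and begun higher genes 1 and 5 of 34. The median difference of the faded higher class was 0.16 at day 14, where 137 of the 192 lay above vehicle. At day 28 it was 0.06, and 109 of the 192 lay above vehicle. Pir and Ptgr1, a reductase of reactive alkenals, were called higher on both days, at 2.29 ± 0.40 SE and 2.63 ± 0.37 SE at day 14 (limma adjusted p = 0.0445 and 0.02) and 2.70 ± 0.40 SE and 1.84 ± 0.37 SE at day 28 (limma adjusted p = 0.00735 and 0.0211). Havcr1 was not called on either day, at 2.10 ± 0.54 SE (limma adjusted p = 0.136) and -0.03 ± 0.54 SE (limma adjusted p = 0.98).

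The median difference of the faded lower class was -0.18 at day 14 and 0.12 at day 28, with 139 and 76 of 208 tested genes below vehicle. Of these 208 genes, limma called 0 lower at day 14 and 4 at day 28 (1.92%). Over all genes 0.118% and 2.65% were called lower on these days. Another 17 of the class were called higher at day 28, where 4.46% of all genes were. Of 42 kept lower genes, 1 was called lower at day 14 and 8 at day 28 (19%). The 42 and 14 calls of day 14 and the 11 of the kept higher class all became 0 with the slide as a block, and without ANP replicate 3 of day 14 they were 0, 1 and 0. The number of calls at day 28 also moved with single arrays: without vehicle replicate 1 they were 144 higher and 68 lower, with 11 of the kept higher class.

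**Figure D5:**
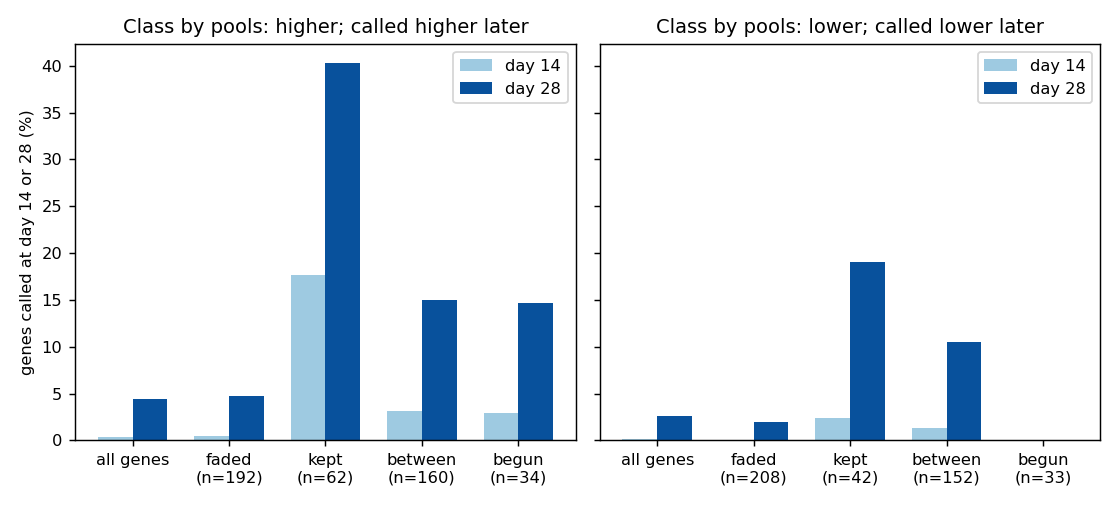
Share of genes (%) that limma called in the class's own direction at day 14 (light bars) and day 28 (dark bars) in 3 against 3 animals, for all genes and for each class; n is the number of class genes tested. The kept higher class stands at 17.7% and 40.3% against 0.355% and 4.46% of all genes, and the faded higher class at 0.521% and 4.69%. Slide and treatment cannot be told apart at day 28.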

How the data were processed

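Total RNA of the outer medulla was labelled with Cy3 and read on 16 one-colour arrays. The submitters' processing notes name Agilent Feature Extraction 10.7. Each scanner file the authors deposited gives a processed signal intensity per spot, with background removed by the software and no scaling between arrays, per the file headers. The authors also deposited a value table, whose entries equal the signal as a ratio to the array's 75th percentile (log2 correlation with the scanner files at least 0.9999).

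From the intensity, log2 values minus each array's 75th percentile were taken over 61657 probes, without outlier spots (0 to 9 an array); none was saturated. Probes were named through RefSeq's table for GRCr8 (27460 probes of 15284 genes); 34197 have no name here. A gene's probe was the one with the highest mean over 16 arrays. A dim array was set to the higher of its own signal and the lowest signal well above background on that array, giving a bound. Log2 differences were turned into folds for the text. For days 14 and 28, limma 3.58.1 (R 4.3.3) was used with 1 mean per group and Benjamini-Hochberg adjustment over 11840 genes at 0.05; the replicate numbers are those of separate animals. This limma fit, and not the sorting of the pools, was run on simulated data with independent noise and no slide effect. It recovered 78% and 72% of simulated 2-fold changes at days 14 and 28, and 29% and 34% of smaller ones. Of its calls 0.926% and 6.19% were false.

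Named genes are the largest differences between the treated pools, up to 8 of each class and 4 between the vehicle pools, a fixed panel, list members chosen as examples and genes given beside a count; loci with a number for a name were left out. The members, classes and lists were chosen with earlier results of these data known. Normexp was run on the median signal, since the mean signal was not used here. The alternatives are given in the closing section.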

Additional observations from a re-analysis of the deposited data

Results flagged for a closer look

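For 6 genes the difference between ANP and vehicle was at least 2-fold in opposite directions at days 1 and 7, with every array well above background and a vehicle level within 2-fold. This difference between days was not tested, with 1 array a group. Gprc5a, an orphan receptor, differed from vehicle by 1.79 at day 1 and -1.03 at day 7, with a change of -2.71 between the treated pools and 0.11 between the vehicle pools. Lrat, a retinol-esterifying enzyme, differed by 1.59 and -1.45, with a change of -2.46 between the treated pools and 0.58 between the vehicle pools. Slc6a12, the betaine carrier, changed by -2.48 between the treated pools and -0.04 between the vehicle pools. Hnf4a, a transcription factor of proximal tubule cells, differed by -1.08 and 1.11, with changes of 1.89 and -0.30. Ly9, a leukocyte surface receptor, differed by -1.63 and 1.04, with changes of 2.86 and 0.19. Glyatl2, an acyltransferase, differed by -1.09 and 1.24, with changes of 1.43 and -0.90, so that much of its turn lies in vehicle.

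The probes without a name here, which no comparison above uses, gave a similar picture. Of 22168 such probes with a usable signal, 8.62% differed at least 2-fold between the treated pools, 1056 higher and 855 lower at day 7, against 3.51% of 22212 between the vehicle pools.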

How the results depend on the processing

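Values that kept within 1.5 times their reported count under an alternative are not repeated. Class sizes are given here as a percentage of the 12596 genes of the pools. Normexp with quantile normalization gave 325 genes higher and 294 lower between the treated pools and 54 and 77 between the vehicle pools, with 0.326% kept higher, 0.206% kept lower, 0.865% between lower, 0.191% begun higher and 0.103% begun lower. Requiring all 4 pools above background gave 75 and 133 genes in vehicle and 0.23% begun higher. Without filter or bound, 786 genes were lower between the treated pools, 321 higher and 528 lower between the vehicle pools, with 0.635% kept lower, 2.1% between lower, 1.2% begun higher and 0.81% begun lower. At 3-fold there were 162 higher and 182 lower between the treated pools and 42 and 51 between the vehicle pools. The classes then held 0.849% faded higher, 0.318% faded lower, 0.206% kept higher, 0.0873% kept lower, 0.778% between higher, 0.524% between lower, 0.254% begun higher and 0.0397% begun lower. At the next brightest probe the median change of the begun higher genes was 0.41. A count can hide a change of genes. With normexp, 59.5% of the faded higher, 66.2% of the faded lower, 60.6% of the kept higher, 41.3% of the kept lower, 29.9% of the begun higher and 35.3% of the begun lower genes kept their class. With the mean of a gene's probes these shares were 77.9%, 88.1%, 78.8%, 71.7%, 50.6% and 73.5%. With the mean of both vehicle pools as the baseline, chosen after seeing the data, they were 90.5%, 94.3%, 84.8%, 67.4%, 89.6% and 85.3%. Of the list medians 1 turned: that of the EGF receptor ligands at day 1, at -0.28, was 0.11 with the mean of a gene's probes. Others moved without turning, by at least the SD of the list median among single animals. That of the UDP-glucuronosyltransferases at day 7, at 0.97, was 2.04 with all 4 pools above background and 0.57 without filter or bound. That of the proteasome subunits at day 7, at 0.17, was 0.08 with normexp.

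At day 14 the calls were 21 and 7 without a filter, 69 and 52 with normexp, 14 and 8 with only the 2 groups, and 0 and 0 with the slide as a block; quantile normalization gave 23 lower. At day 28 normexp gave 578 lower, and only the 2 groups gave 210 and 205. The replicate numbers are those of separate animals and were not used to pair samples. Correlations of same-numbered deviations were 0.069 to 0.143 at day 14, against -0.179 to 0.049 for differently numbered ones. At day 28 they were -0.067 to 0.113 against -0.121 to 0.156. With the replicate block the calls were 3 and 4 at day 14 and 287 higher at day 28. Of the classes, 1 kept higher and 0 faded higher genes were then called at day 14. Kept higher genes called at day 14 were 5 without a filter and 0 with the slide block, and at day 28 16 with only the 2 groups. The 1 faded higher gene of day 14 became 2 with normexp and 0 with only the 2 groups or the slide block. Leaving out 1 array at a time gave 0 to 47 higher and 1 to 26 lower at day 14 and 144 to 489 higher and 58 to 274 lower at day 28. It gave 0 to 11 kept higher and 0 to 2 faded higher genes at day 14, and 11 to 30 and 3 to 10 at day 28. The arrays that moved these counts over 1.5 times were ANP replicates 1, 2 and 3 and vehicle replicates 2 and 3 of day 14, and ANP replicates 1 and 2 and vehicle replicates 1, 2 and 3 of day 28; the cause was not tested. With 1 array a pool, differences between pools carry no error, and dim genes give bounds only.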
